A study of Mus musculus with 8 samples.

Results

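The genes described here are 7 named in studies of sinusoidal and lymphatic endothelium, Oit3, Stab2, Lyve1, Mmrn1, Pdpn, Fcgr2b and Nr2f2, followed through 4 pools of RNA from mouse pancreatic buds. They were chosen by name, with Oit3 put first because its difference between the bud pools had already been seen, so the bud values of Oit3 are a description and support nothing by themselves. All 7 were measured, out of 19938 genes with a probe set carrying exactly 1 symbol, and each had 1 such probe set.

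Transcript levels were read on 1-colour Affymetrix whole-transcript arrays for mouse. The VEGF buds were fresh buds of e12.5 embryos with both Pdx1-tTA and TET-VEGF, in which a transactivator made in Pdx1-expressing cells turns on a VEGF transgene, and the control buds came from littermates with Pdx1-tTA alone, so both groups carry the transactivator. The explants were wild-type e12.5 buds cultured for 2 days with a VEGF receptor 2 inhibitor, named VEGFR2i in the labels, or with vehicle. Each group was 1 pool of RNA, of 3 embryos for the fresh buds and of 5 buds for the explants, hybridized to 2 arrays, the second a technical repeat, which makes 8 arrays. No group has a biological replicate, so no test of a condition was possible, and the spread between the arrays of a pool, given as single values or as an SD, is technical error only.

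Sinusoidal endothelium lines the wide, leaky capillaries of liver, spleen and marrow and clears waste molecules from blood through scavenger receptors. Lymphatic endothelium buds from embryonic veins, a step that needs the transcription factors Nr2f2 (also called COUP-TFII) and Prox1. Several surface proteins are common to both kinds of vessel, among them Lyve1 and Stab2, which bind the matrix sugar hyaluronan. The fetal liver, whose parenchyma is the textbook source of albumin and alpha-fetoprotein and which makes blood at this stage, lies beside the pancreatic buds.

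RefSeq promoter windows of the build GRCm38.p6 were matched for 5 of the 7 members, namely Stab2, Mmrn1, Pdpn, Fcgr2b and Nr2f2. Oit3 and Lyve1 had no match. The windows of Stab2 and Mmrn1 are shown because these were the members whose levels over the 4 pools lay closest to each other. The Stab2 window is chr10:87007893-87008192 on the minus strand and the Mmrn1 window chr6:60944067-60944366 on the plus strand, each of 300 bases, and capitals mark the ETS core GGAAG or its reverse complement.
Stab2: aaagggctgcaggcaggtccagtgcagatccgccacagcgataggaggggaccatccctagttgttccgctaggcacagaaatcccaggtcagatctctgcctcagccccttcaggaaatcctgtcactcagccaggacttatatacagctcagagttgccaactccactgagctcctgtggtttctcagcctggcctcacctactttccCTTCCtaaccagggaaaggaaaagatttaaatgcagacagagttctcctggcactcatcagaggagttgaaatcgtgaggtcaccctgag
Mmrn1: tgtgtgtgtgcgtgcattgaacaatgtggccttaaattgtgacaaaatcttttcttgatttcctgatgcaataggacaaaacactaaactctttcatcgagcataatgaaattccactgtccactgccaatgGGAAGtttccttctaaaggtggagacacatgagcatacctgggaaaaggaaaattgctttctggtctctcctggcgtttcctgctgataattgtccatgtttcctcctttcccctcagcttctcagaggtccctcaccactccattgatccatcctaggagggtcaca
ETS factors include several regulators of endothelial genes. The core GGAAG, searched on both strands, was found 1 time in each window, and 71.4% of the 32851 promoter windows in the table hold it. The nuclear receptor half-site AGGTCA, the kind of letters that Nr2f2 binds, was found 2 times in the Stab2 window, 0 times in the Mmrn1 window, and in 16.3% of all windows. The GATA core GATAAG, held by 7.44% of all windows, and the TATA box TATAAA, held by 13.6%, were found in neither, and no match overlapped another motif. A match of letters is a description and not a binding site.

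The arrays of a pool correlated at 0.997 to 0.998 over probe sets, and no member differed by more than 0.25 (log2) between the arrays of a pool. Array medians ran from 4.08 to 4.12 in the fresh buds and from 4.29 to 4.33 in the explants, and a separate normalization of each set is possible, so values set across them carry that uncertainty. Of 12 genes of pancreatic epithelium, all were measured, and 2 were below 4 in each bud pool and none in the explants. The procarboxypeptidase Cpa1, chosen after its values were seen, was at 10.9 in VEGF buds, 11.7 in control buds and higher still in culture. The explant pools go against their labels: Cdh5, the cadherin of endothelial junctions, was at 8.66 with the label VEGFR2i and at 4.56 with the label vehicle. Directions below follow the labels as they stand and say nothing of what the inhibitor did.

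Between the fresh bud pools, Oit3 was higher in VEGF buds by 2.55-fold, and the other 6 members differed by at most 1.32-fold. Oit3 encodes a secreted or membrane-linked protein with a zona pellucida domain that is known mainly from liver. Its log2 level was 6.09 and 6.20 on the arrays of VEGF buds and 4.82 and 4.77 on those of control buds. The VEGF arrays thus lay well above the control arrays with no overlap. Pool means were 6.15 ± 0.08 and 4.79 ± 0.04 (SD, n = 2 arrays), and their difference was 1.35, with a range of 1.27 to 1.43 over the 4 pairs of arrays. A gene was counted when the means of its pools were 1.5-fold or more apart (0.58 in log2) and their arrays did not overlap. By that rule 1 of 7 members was counted, Oit3, against 1.48% of all genes in either direction (0.552% higher and 0.933% lower). Because Oit3 was named with its bud value known, nothing is read from that share. In bulk RNA, more cells of a type and more RNA per cell cannot be told apart, here or in any result that follows.

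The scavenger receptors came next in the order of roles. Stab2, which clears hyaluronan and other ligands from blood, was at 6.28 and 6.15 in VEGF buds and at 6.08 and 5.92 in control buds, a log2 difference of 0.21 (pairs 0.07 to 0.36). The gap between the nearest arrays was small beside the spread within a pool. Lyve1, a hyaluronan receptor of lymphatic vessels, liver sinusoids and some macrophages, was at 7.36 and 7.32 in VEGF buds and at 6.94 and 6.93 in control buds. Its difference of 0.40 (pairs 0.37 to 0.43) was the second largest of the 7 in the buds, well outside the spread between arrays and short of the size rule. Fcgr2b, the inhibitory Fc receptor of B cells and macrophages, which clears immune complexes in liver sinusoids, was at 3.20 and 3.29 against 3.40 and 3.34. Those levels are at the dim end of the array, where differences carry little information, and the mean difference was -0.12.

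Mmrn1, a carrier protein for coagulation factor V found in platelets and in lymphatic endothelium, was at 5.70 and 5.62 in VEGF buds and 5.45 and 5.29 in control buds, a difference of 0.30 (pairs 0.17 to 0.42). Pdpn, the podoplanin of lymphatic vessels that is also made by mesothelium and stroma, was at 6.23 and 6.48 against 6.06 and 5.94. Its pools did not overlap, but the VEGF arrays were themselves 0.25 apart, and the difference was 0.35 (pairs 0.17 to 0.53). Nr2f2, the venous and lymphatic transcription factor that stroma also makes in quantity, was at 10.6 on both VEGF arrays and 10.5 on both control arrays, a difference of 0.09. In all, 6 of 7 members had a positive bud difference, with a median of 0.30 on the log2 scale, beside 10282 positive differences and a median of 0.00 among the 19938 genes. The count and median of the members include Oit3, whose bud difference was known when it was named, so nothing is read from them.

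**Figure D1:**
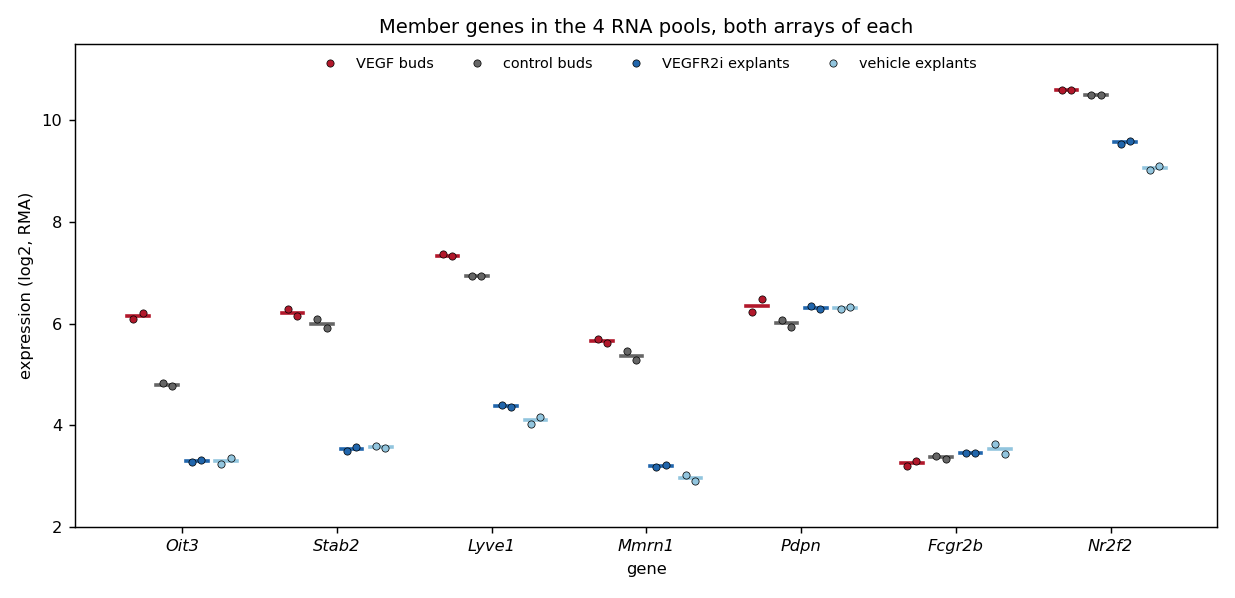
Log2 expression (vertical axis) of the 7 genes (horizontal axis) in the 4 RNA pools; points are single arrays and bars are means of 2 arrays. Oit3, Stab2, Lyve1 and Mmrn1 were higher in both bud pools than in both explant pools, where all of them but Lyve1 were below a level of 4. Oit3 was at 6.15 in VEGF buds against 4.79 in control buds, whereas Pdpn and Fcgr2b stayed within 0.35 and 0.29 over all pools.

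General endothelial genes were higher in VEGF buds as a group, and the members other than Oit3 lay below their median. Of 18 such genes, 7 were counted higher and none lower, all 18 differences were positive, and the median difference was 0.53. The stem and tip cell marker Cd34 differed by 1.02, the VEGF receptors Flt1 and Kdr by 0.90 and 0.75, and Mmrn2, an endothelial relative of Mmrn1, by 0.79. The difference of Oit3 was 0.82 above the median of that list, that of Lyve1 was below it by -0.13, that of Pdpn by -0.18, that of Mmrn1 by -0.23 and that of Stab2 by -0.31. Since Oit3 was named with its bud difference known, nothing is read from its place above the list. No test of these gaps is possible with 1 pool per group. Cdh5, at 9.03 against 8.52, and Pecam1, at 8.57 against 8.05, were close to the list's median.

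Other genes of the same vessels did not move as a block in the buds. Of 21 further genes of liver sinusoidal endothelium, 4 were counted higher and none lower, with a median of 0.15. They were Adgrl4 (0.91), Ehd3 (0.88), Rspo3 (0.86) and Plvap (0.73), of which Adgrl4 and Plvap are expressed by many other endothelia too. Stab1, the sister scavenger receptor of Stab2, which macrophages share, was at 8.42 in VEGF buds and 8.40 in control buds. Clec4g, Dnase1l3 and F8, chosen here after their values were seen because they define mature liver sinusoids, were at 3.03, 3.12 and 3.67 in VEGF buds and at 3.04, 3.22 and 3.63 in control buds. All 3 were thus below the median of every bud array. They do not stand for the list, of whose 21 genes 7 were below a level of 4 in VEGF buds and 8 in control buds. Mrc1, at 8.42 and 8.27, and Cd36, at 6.42 and 6.53, were bright in both bud pools and not counted. The list's median rested partly on single arrays, at 0.07 without the second VEGF array and also without the second control array.

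Of 13 measured lymphatic genes other than the members, Flt4, the receptor for VEGF-C, was higher (0.92) and Prox1 was lower (-0.72). The list's median was 0.26. Prox1, which specifies lymphatic cells but is also a factor of pancreatic progenitors and of hepatoblasts, was at 7.52 in VEGF buds and 8.24 in control buds, and at 9.05 and 9.15 in the explants. Over the 4 pools its order was the reverse of that of Stab2, Lyve1 and Mmrn1 between buds and explants, and it was high in the pools in which the epithelial genes were high. Among 8 venous and capillary genes, Flt4 and Emcn (0.60) were higher, and Nr2f1, the close relative of Nr2f2, differed by 0.55. Among 14 arterial genes 1 was higher, the netrin receptor Unc5b (0.60), and the median was 0.30. Without the first VEGF array or the second control array, 0 arterial genes and 1 venous gene were counted. The name of the gene set is kept for its genes only, and the kind of vessel behind the bud values was not tested.

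**Figure D2:**
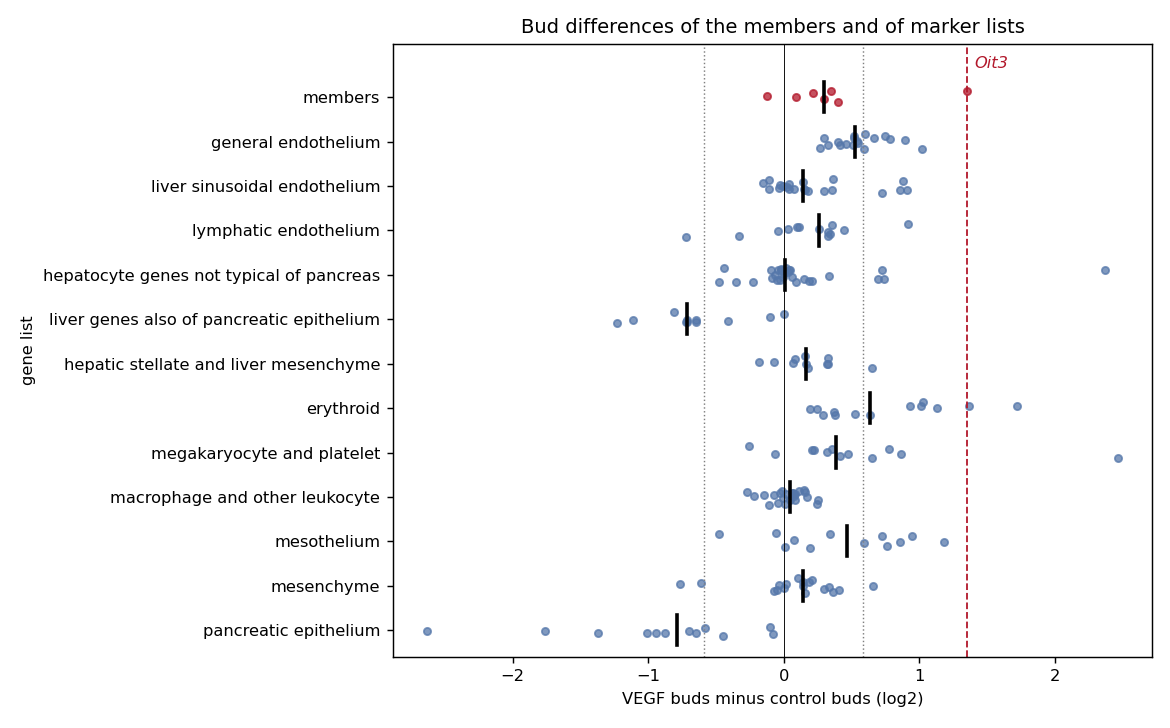
Log2 difference of VEGF buds minus control buds (horizontal axis) for each measured gene of 13 lists (vertical axis; spread within a row has no meaning), with black bars at list medians and dotted lines at 1.5-fold. Oit3, at the dashed line of 1.35, lay beyond every general endothelial gene, all of them between 0.27 and 1.02, and the hepatocyte list held Alb at 2.37 and a median of 0.01. Since Oit3 was named with this difference known, nothing is read from its place.

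Liver genes were set beside Oit3 because fetal liver can be taken along when a bud is dissected. Of 28 measured hepatocyte genes not typical of pancreas, 4 were counted higher in VEGF buds and none lower, with a median of 0.01. Alb was at 7.10 against 4.73, a 5.16-fold difference, Apoa1 at 5.41 against 4.66, Afp at 9.01 against 8.28 and Apoa2 at 4.73 against 4.04. Fgb, at 4.97 against 5.45, was lower in VEGF buds, short of the size rule. So were Trf, at 7.70 against 8.14, and Vtn, at 8.93 against 9.28, both chosen here after their values were seen. Of the 28 differences 15 were positive. The mean level of the list was 4.20 to 4.24 on the VEGF arrays and 4.08 to 4.09 on the control arrays. Below a level of 4 were 21 of the 28 genes in VEGF buds and 20 in control buds, and 18 in all 4 pools. The abundant fetal plasma protein genes Ahsg, at 3.40 against 3.19, and Fga, at 3.16 against 3.18, chosen here after their values were seen, were among the dim ones.

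Afp and Alb did not share an order over the pools. In the explants Afp was at 6.53 and 6.68, below both bud pools, whereas Alb was at 5.78 and 5.70, above control buds by 1.06 and 0.97. Oit3 in both explant pools differed from control buds by -1.50 on the log2 scale, in the direction of Afp and not of Alb. Of 11 measured liver genes that pancreatic epithelium also makes, 8 were lower in VEGF buds and none higher, among them Rbp4 (-1.23) and Ttr (-1.11). These follow the 12 epithelial genes, of which 8 were lower, with Neurog3, the endocrine fate factor, at -2.63. Of 11 genes of liver mesenchyme and stellate cells 1 was higher, the matrix protein Ecm1 (0.65), with a median of 0.17, and none was counted without the second VEGF array. The part of carried liver tissue in the bud values of Oit3 was not tested.

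Blood genes also moved with Oit3 between the bud pools. The erythroid list had 7 of 13 measured genes counted higher, none lower, and a median of 0.63. The embryonic globin Hbb-bh1 was at 7.46 against 5.74, the band 3 anion exchanger Slc4a1 at 8.17 against 6.81, and Rhag at 4.45 against 3.32. The platelet and megakaryocyte list had 4 of 12 higher, none lower, and a median of 0.39. The platelet chemokine Ppbp differed by 2.47, the integrin chains Itgb3 and Itga2b by 0.87 and 0.65, and Pf4 by 0.41. Mmrn1, which platelets also make, differed by 0.30 as given above, in the same direction as the platelet list and beside its median of 0.39. Mean levels of the erythroid list were 6.33 on both VEGF arrays and 5.57 to 5.58 on the control arrays, and for platelets 5.13 to 5.14 and 4.59 to 4.61. Whether blood or the vessels that hold it account for any member's difference was not tested.

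Macrophages, a further source of Lyve1, Stab1 and Fcgr2b, showed little difference in the buds. None of 23 genes was counted, and the median was 0.04. Csf1r, the receptor that macrophages need, was at 7.52 in VEGF buds and 7.74 in control buds, and Adgre1 at 5.97 and 6.04. The Kupffer cell genes Clec4f, at 3.37 and 3.31, and Timd4, at 3.25 and 3.16, chosen after their values were seen, were dim. Mesothelium, a source of Pdpn, had 6 of 12 genes higher and a median of 0.47, including Lhx9 (1.18), Gpm6a (0.95) and Upk3b (0.73), beside the difference of 0.35 for Pdpn. Stromal genes, a source of Nr2f2 and Pdpn, had 1 of 18 higher (Hlx, 0.66), 2 lower (Prrx1, -0.77, and Osr1, -0.61) and a median of 0.14, and Hlx was not counted without the second control array. The part of each of these sources was not tested.

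Proteins that bind or work with the members were measured as well. Among 20 such genes 1 was lower and 1 higher in VEGF buds. Has2, the main hyaluronan synthase of embryos, which makes the ligand of Lyve1 and Stab2, was at 6.76 in VEGF buds and 7.67 in control buds, a difference of -0.92, and the higher gene was Mmrn2. Without the second VEGF array or the first control array 2 genes were counted higher. Clec1b, the podoplanin receptor of platelets, chosen after its values were seen, was at 4.01 and 3.65. Lyve1 and its ligand's synthase thus differed in opposite directions in the buds.

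In the explants, the members differed far less between the pools than general endothelial genes did. Of the 18 general endothelial genes, 17 were higher under the label VEGFR2i, with a median log2 difference of 2.07, and the median over the members was 0.01. But 4 of the 7 members were below a level of 4 in both explant pools, where differences are compressed. The endothelial list had median levels of 6.85 and 4.34, so the 2 medians are not like for like. By the size rule 0 of 7 members were counted, beside 2.19% of all genes in either direction (1.82% higher and 0.371% lower), so the count of 0 says nothing particular about them. Nr2f2, Lyve1 and Mmrn1 had the sign of the endothelial genes without overlap of arrays, although Mmrn1 was at the dim end in both pools. Arterial genes were higher for 9 of 14, led by the connexin Gja5 (3.12), and venous genes for 5 of 8, led by Emcn (3.14).

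Oit3 was at 3.28 and 3.31 in the pool labelled VEGFR2i and at 3.23 and 3.35 in the pool labelled vehicle, and its arrays overlapped, with a mean difference of 0.01. Stab2 was at 3.49 and 3.57 against 3.58 and 3.56, also with overlap, a difference of -0.04. Fcgr2b was at 3.46 on both arrays against 3.62 and 3.44, a difference of -0.07. These levels are at the dim end of the array, where RMA values compress differences, so a small one was not detectable.

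Lyve1 was at 4.40 and 4.36 in the pool labelled VEGFR2i and at 4.02 and 4.17 in the pool labelled vehicle. The arrays did not overlap and the difference was 0.29 (pairs 0.20 to 0.38). Both vehicle values lay below the explant array medians of 4.29 to 4.33, so this difference may be compressed too. Mmrn1 was at 3.18 and 3.21 against 3.01 and 2.90, a difference of 0.24 (pairs 0.17 to 0.30). Lyve1 and Mmrn1 both had the sign of the endothelial genes at far smaller size, -1.78 and -1.83 below the endothelial median. Mmrn1 was the dimmest of the 7 members in both pools, so its sign and difference carry little information. Pdpn was at 6.34 and 6.29 against 6.28 and 6.32, with overlap and a difference of 0.01. It was bright enough to show a change, and none of the size rule's extent was seen.

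Nr2f2 had the largest explant difference of the 7, at 9.53 and 9.60 against 9.02 and 9.10. The pools were well apart, by 0.51 (pairs 0.44 to 0.58) or 1.42-fold, just short of the size rule. Its relative Nr2f1 was counted higher (0.63). Stromal genes that differed with it included Pdgfrb (1.15), Thy1 (1.23) and Hlx (0.69), 3 of 18 in all, with a median of 0.25. Whether the Nr2f2 difference sits in vessels or in stroma was not tested.

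**Figure D3:**
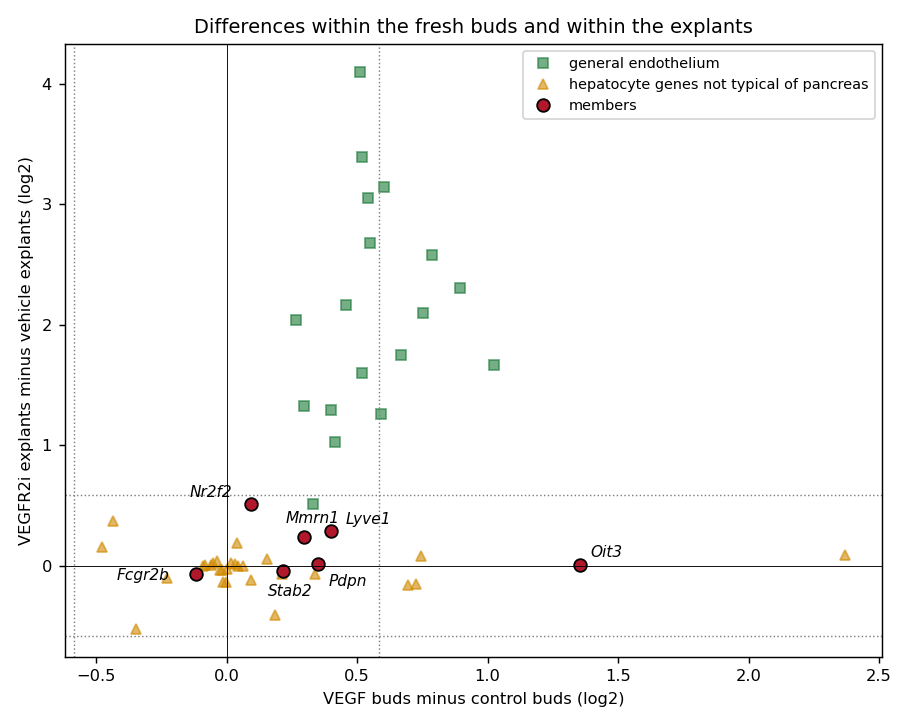
Log2 difference within the fresh buds (horizontal axis) and within the explants (vertical axis) for the 7 members, 18 general endothelial genes and 28 hepatocyte genes; dotted lines mark 1.5-fold. Endothelial genes lay high on the vertical axis, with a median of 2.07, while all members lay at or under 0.51 there. Oit3, named with its bud difference known, stood alone among them at 1.35 on the horizontal axis. In both explant pools 4 of the 7 members were below a level of 4, where differences are compressed.

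Other genes shared with sinusoids and lymphatics did differ between the explant pools. Of 21 sinusoidal genes 6 were higher, with a median of 0.11: Plvap (1.68), the lipid receptor Cd36 (1.45), Stab1 (1.44), Adgrl4 (1.44), the mannose receptor Mrc1 (1.28) and Aqp1 (0.92, chosen after its value was seen). Of 13 lymphatic genes 5 were higher, with a median of 0.14: Flt4 and the growth factor Vegfc (both 1.07), Itga9 (0.87), Sox18 (0.68) and Foxc2 (0.67). Stab1 at 7.06 against 5.63 therefore contrasts with its sister Stab2, for which no difference was detectable at levels near 3.5. Macrophage genes also differed between the explant pools, with 11 of 23 higher under the label VEGFR2i and a median of 0.55, including Laptm5 (1.35) and Adgre1 (1.09), and Stab1, Cd36 and Mrc1 are expressed by macrophages as well as by vessels. Has2 was at 8.75 against 7.79, a difference of 0.96 and opposite in sign to its bud difference. Hepatocyte genes had no member counted and a median near 0.00, with Afp at a difference of -0.15 and Alb at 0.09.

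Set across the sets, Oit3, Stab2, Lyve1 and Mmrn1 were at least 2-fold lower in both explant pools than in both bud pools, a count of 4 of 7, beside 0.787% of all genes. This way of counting was chosen after the values were seen. Levels in control buds and in the pool labelled VEGFR2i differed by -2.47 for Stab2, -2.55 for Lyve1, -2.18 for Mmrn1, -1.50 for Oit3 and -0.93 for Nr2f2, with Pdpn at 0.31 and Fcgr2b at 0.09. Because Stab2, Mmrn1 and Oit3 were at the dim end of the array in the explants, their differences may understate the change and their sizes cannot be ranked. In the same pool general endothelial genes had a median of -0.39, with Emcn at -1.28. Cdh5 differed by 0.14, Cd34 by 0.21 and Pecam1 by -0.35, each above that median, so these genes do not stand for the list. These small values depend on the scaling: with quantile normalization over all arrays the median was -0.72, Cdh5 was at -0.18, Cd34 at -0.12 and Pecam1 at -0.68, while Stab2 was at -2.67, Lyve1 at -2.82, Mmrn1 at -2.37 and Oit3 at -1.67. In the pool labelled vehicle Cdh5 differed from control buds by -3.96. Stab2, Mmrn1 and Oit3 were thus dim in both explant pools, although Cdh5, which lay above the median of its list, was near its bud level in one of them. Mmrn1 was slightly higher there, as given above, at a level too dim for that difference to be read. Both explant pools had these dim levels, so the statement holds whichever label belongs to which pool.

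Other vascular genes were lower in both explant pools too, so nothing here is shown to be particular to the members. Of the 18 general endothelial genes 4 were 2-fold lower in both, among them Tek, the angiopoietin receptor, at -2.69 in the pool labelled VEGFR2i, chosen here after its value was seen. The apelin receptor Aplnr of veins and capillaries was at -4.01, and Plvap was at -2.20. Of the 21 sinusoidal genes 3 were 2-fold lower, and of the 13 lymphatic genes 2. Of the 13 erythroid genes 5 were, with Hbb-bh1 at -2.38, so red cell genes were also lower in the explants. The median over all genes was 0.17 above control buds in each explant pool. Culture, genotype and possibly normalization differ together between the sets and cannot be told apart.

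**Figure D4:**
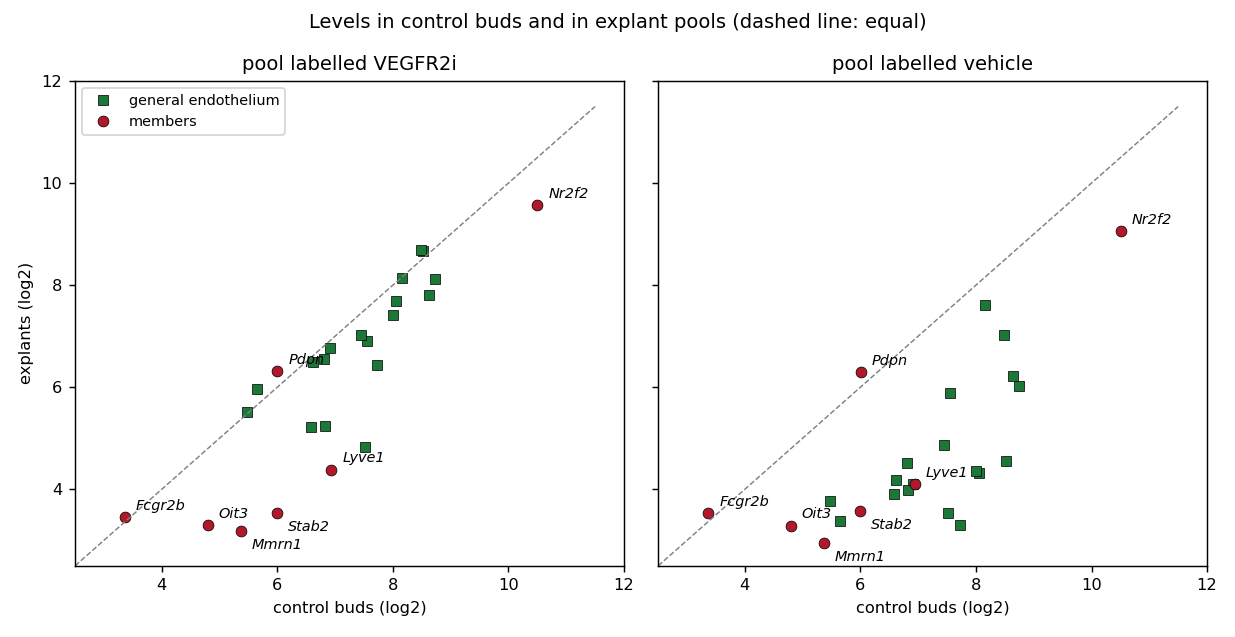
Log2 level in control buds (horizontal axis) against the level in each explant pool (vertical axis; left, labelled VEGFR2i; right, labelled vehicle) for the 7 members and 18 general endothelial genes, as pool means. Most endothelial genes lay near the dashed line of equality on the left, where their median was -0.39 (-0.72 with quantile normalization), and well below it on the right, with a median of -2.63, whereas Stab2, Lyve1, Mmrn1 and Oit3 lay below the line in both.

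The order of levels over the pools sorted the members into sets. Oit3, Stab2, Lyve1, Mmrn1 and Nr2f2 were highest in VEGF buds, next in control buds and lower in explants. The explant pools could not be ordered for Oit3 and Stab2, whose arrays overlapped, and were ordered with VEGFR2i above vehicle for Lyve1, Mmrn1 and Nr2f2. Mmrn1 was at the dim end in both explant pools, so that order carries little information for it. For Pdpn the VEGF buds and both explant pools overlapped, and control buds were lowest, by 0.30 from the next pool. That order turned with quantile normalization, under which Pdpn in the explant pools differed from control buds by -0.03 and -0.02. Fcgr2b ran the other way, from 3.53 in vehicle explants to 3.25 in VEGF buds, a span too small to read at that level, and its explant pools were below control buds, by -0.10 and -0.05, when arrays were centred on their medians.

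Likeness was measured as the root mean square distance between the 4 pool means of 2 genes, each centred on its own mean, over the 4 pools, with smaller values more alike. Stab2 and Mmrn1 were the closest pair of members at 0.12, and Lyve1 was 0.22 from Stab2 and 0.23 from Mmrn1. Oit3 stood farther from them, at 0.40 from Mmrn1, 0.44 from Stab2 and 0.50 from Lyve1. Its bud difference, known when it was named, enters these distances, as do the dim explant levels of Oit3, Stab2 and Mmrn1. Nothing is therefore read from the order of the members. The 8 genes nearest to Oit3 were Hsd3b6 (0.16), H60b (0.24), Afp (0.24), Car2 (0.24), Klk13 (0.32), Tead4 (0.33), Raet1d (0.33) and Lhx9 (0.34). Afp is the fetal liver and yolk sac plasma protein, Car2 a carbonic anhydrase abundant in red cells, and Lhx9 a gene of the mesothelium list. The others are in none of the marker lists named here and were not assigned to a tissue. The other neighbours were Rragd and Rnf150 for Stab2 after Mmrn1, Col8a1, Rragd and Bves for Lyve1, and Rnf150, Raet1d and Rragd for Mmrn1, all between 0.05 and 0.17. Nr2f2 had B3gnt5, Sox11 and Kif26b within 0.05. Pdpn and Fcgr2b varied too little for a nearest gene to be informative: their nearest, Tgfb3 and Slc2a2, were at 0.29 and 0.28. With 4 pools many genes share a profile, and no shared control is read from it.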

How the data were processed

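The authors deposited log2 values, 1 for each probe set and array, made by RMA (robust multi-array average) with version 6.5 of Partek's Genomic Suite, as the series' design text states. They run from 2.41 to 13.57. RMA summarises probes after setting arrays to 1 distribution, which hides a shift common to most genes. Differences of dim genes are compressed in RMA values. The sources used here do not say whether the 8 arrays went through 1 run. Precision is limited by the 2 arrays per pool.

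Of 35399 probe sets, 21789 had 1 gene symbol in the platform annotation, 1621 had several and 11989 were not listed. The probe set with the highest mean stood for a gene, leaving 19938 genes. Entrez IDs of all 7 members matched RefSeq genes of GRCm38.p6. Pool means were compared within a set by the 1.5-fold size rule, which was checked on data made with known changes. Those changes were well above the cutoff, and their noise was that between arrays of a pool. The check therefore says nothing of false counts from differences between embryos or pools. No p-value was computed. Of 234 genes in 15 marker lists, 219 were measured.

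Members, lists and rules were chosen with earlier results of these data known. Named genes were all members, the 8 nearest to Oit3 and 3 nearest to each other member among genes with a range of at least 1, up to 5 genes per list and comparison with the largest difference, and a short fixed set of markers; predicted genes and receptor clusters were left out of the nearest genes. Genes named otherwise were picked after their values were seen, as stated beside them. Alternatives left out each array, centred or quantile normalized the arrays, averaged probe sets, used 2-fold or kept genes with a mean of at least 5. Python 3.11.15, numpy 2.4.6 and pandas 2.3.3 were used.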

Additional observations from a re-analysis of the deposited data

How the results depend on the processing

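No paired analysis was possible because each group is 1 pool and the results come from no test. The bud difference of Oit3 ran from 1.30 to 1.41 over all alternatives, and leaving out 1 array at a time kept it the only member counted. Its explant difference ran from -0.05 to 0.07 over the same alternatives. No other member crossed the size rule in either comparison under any alternative run. With only the genes of mean level 5 or more, 0 members were counted in the buds, because Oit3 itself was among the 4 members removed, leaving 3 of 7. At 2-fold, Oit3 was still counted, and the count over all genes went from 296 to 50 in the buds and from 437 to 133 in the explants. When likeness was measured on the 2 within-set differences only, 3 of the 8 genes nearest to Oit3 were shared, and with quantile normalization over all arrays 8 were. The count of members 2-fold lower in both explant pools was 4 without any 1 array and 5 with median centring or quantile normalization, which added Nr2f2, while all genes so counted went from 157 to 244 and 327. Levels set across the sets turned sign under quantile normalization for Pdpn, Cdh5 and Cd34, and under median centring for Fcgr2b and Cdh5 (-0.06). The alternatives across the sets were chosen after seeing the data. With 1 pool per group, differences of embryo stage, litter or dissection are part of every value.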
